A study of Mus musculus with 30 samples.

Results

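Growth hormone and IGF1 axis genes were examined in the liver: the receptor gene Ghr, the transcription factor genes Stat5a and Stat5b, the feedback inhibitor genes Socs2 and Cish, the repressor gene Bcl6, and Igf1 and Igfals, whose products form the circulating IGF1 complex. These 8 genes, of 51826 gene identifiers in the count table, were selected on the month 9 values of Socs2, which were higher in irradiated livers. The month 9 difference between irradiated and control livers is therefore given as a description, with no test. All 8 passed the low-count filter and were among the 19685 genes tested. The livers came from male mice whose strain label reads C57BL16. The mice were either not irradiated or exposed to 0.2 Gy of 56Fe, a heavy ion of space radiation, at 600 MeV/n. Left lobes were taken after 30, 60, 120, 270 and 360 days, called months 1, 2, 4, 9 and 12, with 3 biological replicates in each of the 10 groups. The age at irradiation is not given in the labels, so months count from irradiation and not from birth.

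Growth hormone from the pituitary binds its receptor on hepatocytes, and the kinase JAK2 then phosphorylates STAT5 proteins, which enter the nucleus and switch on Igf1, Igfals, Socs2 and Cish. SOCS2 and CISH in turn dampen the signal, and BCL6 represses many of the genes that STAT5 activates. Male rodents secrete growth hormone in pulses and females more evenly, and this pattern sets much of the sex difference in liver gene expression through STAT5b.

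Library totals ranged from 7995248 to 20215995 counts. The libraries of months 1 and 2 differed in composition from the others: the noncoding RNA Gm26917 took 3.04 to 7.57% of the counts in those 12 libraries and 0.452 to 2.04% in the 18 libraries of months 4, 9 and 12. All 7 hepatocyte markers (Alb, Apoa1, Ttr, Cyp2e1, Cps1, Ass1 and Serpina1a) were detected in every library, and their summed level ran from 27243 CPM in an irradiated month 1 liver to 97145 CPM in a control month 12 liver. CPM are counts scaled to library size with TMM factors. In such whole-tissue RNA, fewer cells of a type and less RNA per cell cannot be told apart.

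Per length of exon, Ghr and Igf1 were the most abundant of the 8 genes, at mean levels of 86.0 and 66.1 RPKM over the 30 libraries. Igfals followed at 39.2 RPKM and Stat5b at 15.2 RPKM, then Bcl6 at 6.09, Socs2 at 2.78, Stat5a at 2.70 and Cish at 1.73 RPKM. The receptor, the STAT5 pair and the IGF1 pair were steady from liver to liver: the highest of the 30 libraries was 3.29 times the lowest for Ghr, 3.72 for Stat5a, 2.20 for Stat5b, 2.46 for Igf1 and 2.86 for Igfals. Socs2, Cish and Bcl6 spread far more, by 41.5, 46.3 and 12.0 times. Much of that spread lay between replicates of a group, since the median ratio of highest to lowest replicate was 2.44 for Socs2, 3.92 for Cish and 2.85 for Bcl6, against 1.12 for Stat5b. With the groups ordered by mean level, 4 of the 72 neighbouring pairs had libraries that did not overlap.

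**Figure D1:**
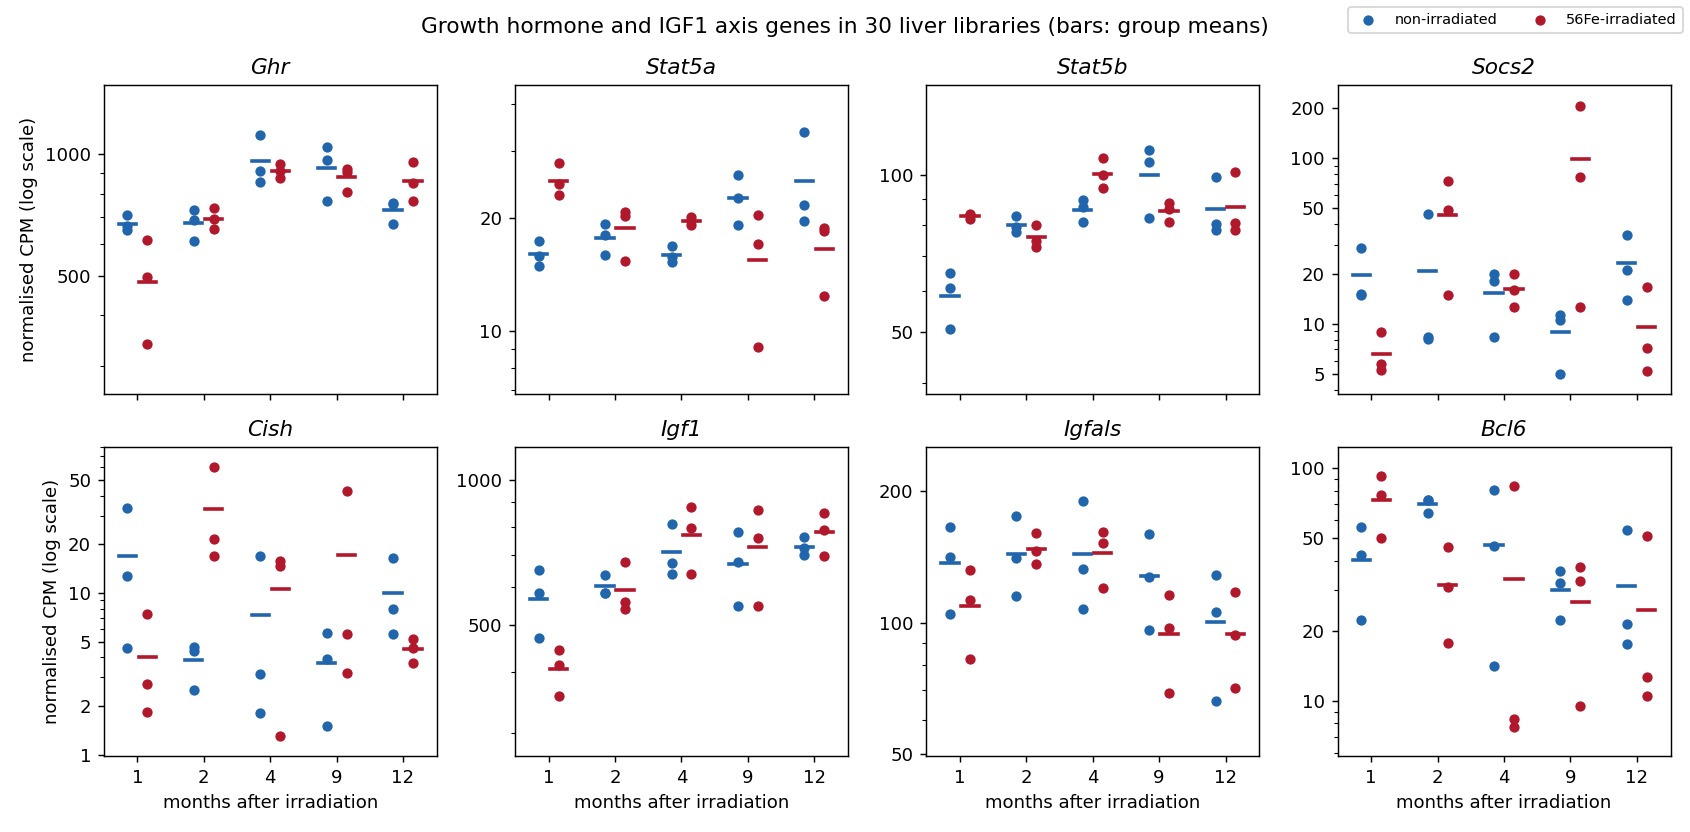
Normalised CPM (log scale) of each of the 8 genes against months after irradiation; each point is 1 liver, blue non-irradiated and red 56Fe-irradiated, and bars are means of 3. Replicates of Ghr, Stat5b, Igf1 and Igfals lie close together, while Socs2, Cish and Bcl6 spread widely within groups; Socs2 reaches 207 CPM in 1 irradiated liver at month 9.

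Ghr encodes the growth hormone receptor (ENSMUSG00000055737, chr15:3317760-3583492, minus strand, GRCm38). At month 1 the 3 control livers held 666, 708 and 649 CPM, and the 3 irradiated livers 497, 613 and 339 CPM. The 3 irradiated libraries lay below the 3 controls, with a log2 difference of -0.48 ± 0.16 (SE) that did not pass the test (edgeR, adjusted p = 0.0960, n = 3 per group). At month 2 the means were 675 ± 59.5 CPM in controls and 694 ± 41.4 CPM in irradiated livers (SD, n = 3). At month 4 they were 961 ± 136 and 909 ± 36.3 CPM, with overlapping libraries. At month 12 the irradiated libraries, at 956, 767 and 851 CPM, lay above the controls, at 753, 672 and 757 CPM, by 0.24 ± 0.16 on the log2 scale (edgeR, adjusted p = 0.535).

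The transcription factors that carry the signal are encoded by the neighbouring genes Stat5a (ENSMUSG00000004043, chr11:100859351-100885169, plus strand) and Stat5b (ENSMUSG00000020919, chr11:100780731-100850724, minus strand). The pair are close paralogs, so reads from stretches they share could be assigned to either gene or dropped. At month 1 the controls held 64.8, 60.7 and 50.7 CPM of Stat5b, and the irradiated livers 82.3, 83.7 and 84.1 CPM. Every irradiated library was above every control. Stat5b was 1.42-fold higher in irradiated livers (log2 difference 0.50 ± 0.12, edgeR, adjusted p = 0.0170, n = 3 per group). Control month 1 had the lowest Stat5b mean of the 10 groups, 58.7 CPM, and did not overlap the next group, irradiated month 2. The irradiated month 1 mean of 83.4 CPM lay within the range of the other group means, 75.9 to 100 CPM. Stat5b alone of the 8 genes passed at month 1, where 4.6% of all genes tested did. Without control replicate 3 the adjusted p was 0.0506, and without irradiated replicate 3 it was 0.0645. Without the low-count filter the adjusted p was 0.115, at a log2 difference of 0.50.

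For Stat5a the month 1 values were 14.9, 15.8 and 17.4 CPM without irradiation and 22.9, 24.5 and 27.8 CPM with it. These libraries did not overlap either, but the log2 difference of 0.65 ± 0.21 missed the threshold (edgeR, adjusted p = 0.0803); DESeq2 gave 0.0440. At month 4 both STAT5 genes were again higher in the 3 irradiated libraries than in the 3 controls. Stat5a stood at 19.1, 19.6 and 20.1 CPM against 16.8, 15.7 and 15.3 CPM, and Stat5b at 99.8, 107 and 94.3 CPM against 89.3, 86.7 and 81.1 CPM. The log2 differences of 0.30 ± 0.21 for Stat5a and 0.23 ± 0.12 for Stat5b did not pass (edgeR, adjusted p = 0.470 and 0.320). At month 12 the order of Stat5a was the opposite, with 12.4, 18.4 and 18.7 CPM in irradiated livers and 19.6, 33.7 and 21.7 CPM in controls (log2 difference -0.60 ± 0.21, edgeR, adjusted p = 0.215).

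The irradiation effect on Stat5a differed between months 1, 2, 4 and 12 (edgeR F-test on 3 degrees of freedom, adjusted p = 0.0391, n = 3 in each of 8 groups). Stat5a alone of the 8 genes passed, where 7.27% of all genes did; the adjusted p was 0.0936 for Stat5b and 0.0921 for Cish. Leaving out 1 library ended the call for 8 of 24 libraries, with adjusted p of 0.0502 to 0.109. These were control month 1 replicates 1 and 2 (0.0670 and 0.0645), control month 12 replicates 2 and 3 (0.0870 and 0.0502), irradiated month 1 replicate 3 (0.0719), irradiated month 4 replicates 1 and 3 (0.0530 and 0.0512) and irradiated month 12 replicate 1 (0.109). Setting month 12 against month 4 directly, a comparison chosen after the data were seen, gave a change in the effect of -0.90 ± 0.30 for Stat5a (95% interval -1.50 to -0.29, edgeR, adjusted p = 0.0722). There 0 of the 8 genes passed with edgeR or DESeq2 and 1 had an unadjusted p under 0.05, beside 5.37% of all genes called. The Gm26917 share also separated the arms at months 4 and 12. At month 4 it was 0.469 to 0.508% in control and 0.827 to 0.985% in irradiated libraries. At month 12 it was 1.33 to 2.04% in control and 0.759 to 1.04% in irradiated libraries. The part of composition in the Stat5a differences was not tested. The last bases of Stat5a overlap 72 exon bases of Stat3 on the other strand, where reads of either gene cannot be told apart without strand.

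Socs2 (ENSMUSG00000020027, chr10:95385362-95417180, minus strand) encodes an inhibitor that binds the activated receptor and limits growth. At month 1 controls held 28.9, 14.9 and 15.1 CPM of it, against 8.88, 5.23 and 5.69 CPM after irradiation. The groups did not overlap, yet the log2 difference of -1.58 ± 0.85 did not pass (edgeR, adjusted p = 0.371); a fit on these 6 libraries alone gave 0.0223. At month 2 the order of the means turned, with 45.9, 8.31 and 8.13 CPM in controls and 48.7, 14.9 and 73.2 CPM in irradiated livers, and the groups overlapped (1.14 ± 0.78, edgeR, adjusted p = 0.421). At month 4 the means were 15.4 ± 6.21 CPM in controls and 16.3 ± 3.72 CPM in irradiated livers (SD, n = 3). At month 12 controls held 34.5, 13.9 and 21.1 CPM and irradiated livers 16.6, 5.17 and 7.10 CPM, again overlapping (-1.27 ± 0.81, edgeR, adjusted p = 0.502).

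The month 9 values that led to the choice of these genes were 10.5, 4.996 and 11.3 CPM in controls and 207, 12.6 and 77.1 CPM in irradiated livers. The irradiated libraries all lay above the controls, but replicate 2 was close to them, and the irradiated mean of 99.0 CPM had an SD of 99.2. The difference of the fitted means was 3.47 on the log2 scale, or 11.1-fold. It was 2.33 without irradiated replicate 1, the liver at 207 CPM. The clock gene Dbp stood at 49.3, 52.2 and 33.6 CPM in these controls and 10.5, 26.5 and 7.74 CPM in these irradiated livers. Summed cholangiocyte markers were 26.6, 36.5 and 24.9 CPM against 132, 29.7 and 59.9 CPM. Summed Kupffer cell markers were 337, 274 and 205.5 CPM against 349, 217 and 602 CPM. The part of clock phase and cell content in the month 9 Socs2 values was not tested. Among the 10 groups ordered by mean, irradiated month 9 stood first for Socs2, irradiated month 2 second at 45.6 ± 29.3 CPM and irradiated month 1 last at 6.60 ± 1.99 CPM. No neighbouring pair in that order separated without overlap.

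Cish (ENSMUSG00000032578, chr9:107296026-107302784, plus strand), the other rapidly induced inhibitor of STAT5, differed most at month 2. Controls held 2.52, 4.37 and 4.60 CPM and irradiated livers 21.6, 16.98 and 60.3 CPM. All 3 irradiated libraries were above all 3 controls, with a log2 difference of 3.09 ± 1.05, or 8.50-fold. The adjusted p was 0.0914 with edgeR and 0.0198 with DESeq2, so this call depended on the tool. With edgeR 0 of the 8 genes passed at month 2, where 4.37% of all genes did, and Cish was the 1 with an unadjusted p under 0.05. At month 1 the libraries overlapped, at 33.5, 4.54 and 12.8 CPM in controls and 2.75, 7.40 and 1.83 CPM in irradiated livers (-2.07 ± 1.04, edgeR, adjusted p = 0.330).

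At month 4 Cish took 2 levels in both arms: 3.13, 16.9 and 1.80 CPM in controls and 1.30, 15.8 and 14.8 CPM in irradiated livers. At month 9 a single irradiated liver stood out, with 42.8 CPM against 5.56 and 3.22 CPM in the others and 5.67, 1.49 and 3.90 CPM in controls. That liver, replicate 1, was also the one with 207 CPM of Socs2. At month 12 the irradiated livers held 5.18, 3.70 and 4.59 CPM, all below the controls at 7.95, 16.5 and 5.57 CPM (-1.16 ± 1.02, edgeR, adjusted p = 0.648). Gm17040 and Gm17041 lie on the other strand and share 261 and 479 exon bases with Cish; Gm17040 did not exceed 2.27 CPM in any library.

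Bcl6 (ENSMUSG00000022508, chr16:23965052-23988852, minus strand), a repressor more abundant in male than in female liver, showed its clearest separation at month 2 as well. Controls held 72.9, 64.2 and 73.1 CPM and irradiated livers 17.7, 45.9 and 30.7 CPM. The 3 irradiated libraries lay below the controls, with a log2 difference of -1.16 ± 0.81 (edgeR, adjusted p = 0.431). At month 1 controls held 42.3, 55.9 and 22.3 CPM and irradiated livers 76.5, 50.0 and 92.8 CPM, with overlap (0.86 ± 0.81, adjusted p = 0.686). At month 4 the replicates of each arm spread more than the arms differed, with 46.3, 14.2 and 80.5 CPM in controls and 83.9, 7.71 and 8.39 CPM in irradiated livers. The month 9 values were 32.0, 36.0 and 22.3 CPM against 32.7, 9.55 and 37.8 CPM, and the month 12 values 17.6, 21.3 and 54.5 CPM against 12.7, 50.9 and 10.5 CPM.

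Igf1 (ENSMUSG00000020053, chr10:87858265-87937042, plus strand) encodes the growth factor that liver releases in response to growth hormone. Its month 1 values were 583, 650 and 471 CPM in controls, all above the 414, 446 and 358 CPM of irradiated livers. The log2 difference of -0.49 ± 0.17 did not pass (edgeR, adjusted p = 0.111), although it did without control replicate 3 (-0.61, adjusted p = 0.0274). From month 2 on the arms overlapped. At month 2 the control and irradiated means were 602 ± 30.1 and 592 ± 73.5 CPM (SD, n = 3). They were 708 ± 91.0 and 771 ± 122 CPM at month 4 and 669 ± 116 and 725 ± 163 CPM at month 9. The month 12 means were 728 ± 30.9 and 780 ± 81.3 CPM.

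Igfals (ENSMUSG00000046070, chr17:24865997-24882010, plus strand) encodes the acid-labile subunit that keeps IGF1 in the circulation. Its arms overlapped at all 5 times. At month 1 the means were 137 ± 30.5 CPM in controls and 109 ± 24.7 CPM in irradiated livers (SD, n = 3; log2 difference -0.33 ± 0.26, edgeR, adjusted p = 0.609). Its highest group mean was 1.56 times its lowest, the smallest such range of the 8 genes.

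An antisense RNA at the Igf1 locus, Igf1os, was called at month 2 where Igf1 itself was not. It held 0.975, 0.948 and 1.69 CPM in controls and 5.56, 15.6 and 12.6 CPM in irradiated livers. The groups did not overlap and Igf1os was 9.14-fold higher in irradiated livers (log2 difference 3.19 ± 0.69, edgeR, adjusted p = 0.0162). Without control month 2 replicate 1 or 2 or irradiated month 2 replicate 3 the adjusted p was 0.0590, 0.122 or 0.0702. In control livers Igf1os had fallen from 11.5, 5.09 and 7.61 CPM at month 1 (-2.73 ± 0.69, edgeR, adjusted p = 0.0156). That call was lost without 3 of the 6 libraries (adjusted p 0.0502 to 0.0828). In irradiated livers Igf1os was not called between months 1 and 2 (1.09 ± 0.60, edgeR, adjusted p = 0.477). Its exons share no bases with those of Igf1.

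Counted over the 8 genes, irradiated and control libraries separated without overlap for 5 genes at month 1. Stat5a and Stat5b were higher in irradiated livers and Ghr, Socs2 and Igf1 lower, while 8.71% and 9.92% of all genes tested were separated in these directions. At month 2 the count was 1 higher (Cish) and 1 lower (Bcl6), with 15.6% and 18.6% of all genes. At month 4 it was 2 higher (Stat5a and Stat5b) and 0 lower, with 14.3% and 15.9% of all genes. At month 12 it was 1 higher (Ghr) and 2 lower (Stat5a and Cish), with 7.74% and 7.78% of all genes. At month 9 Socs2 alone was separated, and nothing is read from that count because Socs2 was chosen for it; 9.4% of all genes were higher without overlap and 8.77% lower.

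By the adjusted p, 0 of the 8 genes passed at month 4, where 3.6% of all genes did, and 0 of the 8 had an unadjusted p under 0.05; DESeq2 called 0 as well. At month 12 no gene of the 19685 passed (edgeR, 0%), although 2648 had an unadjusted p under 0.05, Stat5a among them at 0.00768; DESeq2 called 0 of the 8. In the mean effect over months 1, 2, 4 and 12, 0 of 8 passed, with 6.94% of all genes called. Stat5b was the 1 with an unadjusted p under 0.05, at 0.17 ± 0.06 (edgeR, adjusted p = 0.0957), and DESeq2 called it at 0.0460. The median log2 difference of the 8 genes was -0.40 at month 1 (all genes -0.03), 0.04 at month 2 (all genes -0.02), 0.10 at month 4 (all genes 0.04) and -0.21 at month 12 (all genes -0.02).

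**Figure D2:**
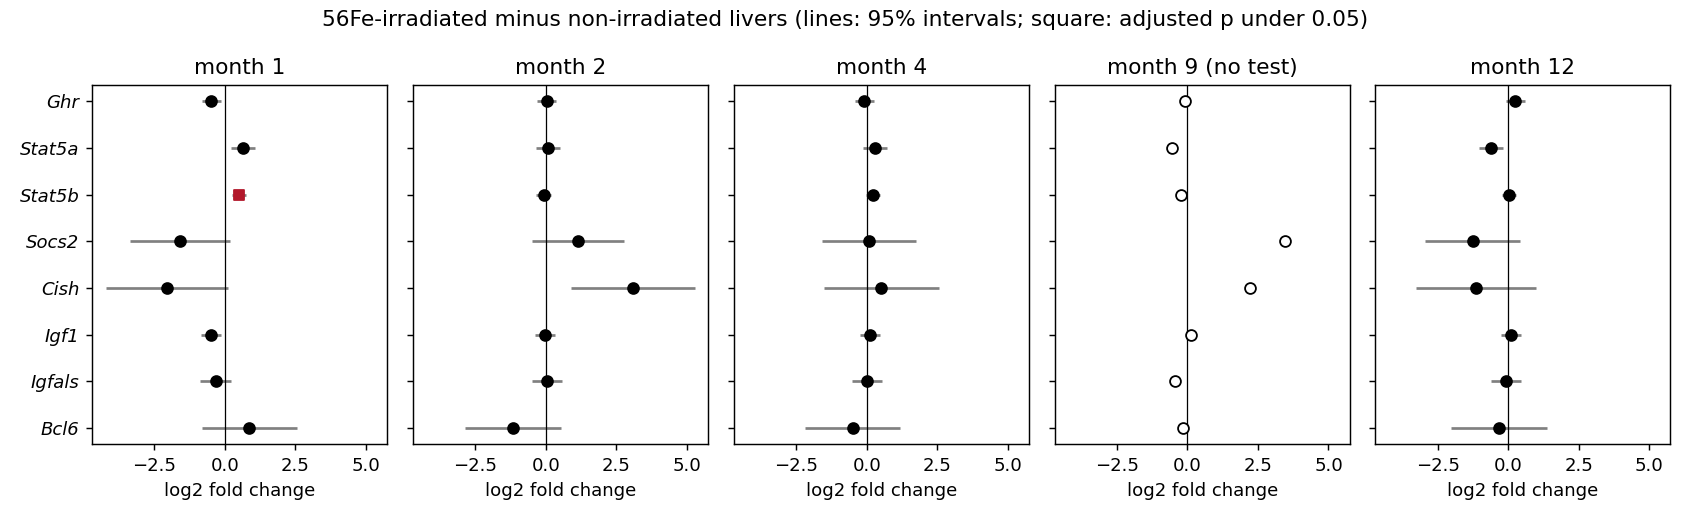
Log2 fold change of irradiated over control livers for the 8 genes at each month, from fits of 30 libraries; lines are 95% intervals, the red square marks adjusted p under 0.05, and open circles at month 9 are descriptions without a test. Stat5b at month 1, at 0.50, is the only square; intervals of Socs2, Cish and Bcl6 are several times wider than those of the other genes.

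Clock genes also separated the month 1 arms. Arntl, a core clock activator, had 2.27, 1.91 and 2.44 CPM in control and 25.7, 25.5 and 38.4 CPM in irradiated livers. Dbp, a clock output gene, had 124.6, 120.1 and 137.5 CPM in control and 16.95, 13.97 and 5.78 CPM in irradiated livers. Control livers of month 2 held 21.1, 7.66 and 10.6 CPM of Arntl and 21.8, 55.6 and 41.1 CPM of Dbp. Of 11 clock genes, 3 were higher and 5 lower at month 1 (edgeR), where 4.6% of all genes passed. At month 2, 2 were lower (Per1 and Ciart) and 6 had an unadjusted p under 0.05, where 4.37% of all genes passed. At months 4 and 12, 0 passed and 1 had an unadjusted p under 0.05. The Gm26917 share was 3.04 to 6.09% in the control libraries of month 1 and 6.36 to 7.57% in the irradiated ones, and the summed hepatocyte markers were 46297 to 61516 CPM and 27243 to 50638 CPM. At month 2 the share was 3.32 to 4.76% in control and 4.79 to 6.93% in irradiated libraries. The summed markers were then 63198 to 74429.5 CPM and 55765.1 to 64450.5 CPM. The part of clock phase, composition and hepatocyte content was not tested at either month. This holds for the month 1 differences of Ghr, Stat5a, Stat5b, Socs2 and Igf1, and for those of Nr3c1, Elovl3 and Tox given below. It holds too for the month 2 differences of Cish, Bcl6, Igf1os, Ptpn11 and Igfbp4.

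Changes over time were tested in each arm. From month 1 to month 2 Stat5b rose in control livers from 58.7 ± 7.26 to 80.2 ± 2.78 CPM (log2 difference 0.45 ± 0.12, edgeR, adjusted p = 0.0215), 1 of 8 genes beside 9.8% of all genes. Leaving out 1 of the 6 libraries raised the adjusted p above 0.05 for control month 1 replicate 3 (0.140) and control month 2 replicates 1 (0.0661) and 2 (0.0901). In irradiated livers 0 of 8 passed between the same months, where 0.00508% of all genes did. For Socs2 all 3 month 2 libraries lay above all 3 month 1 libraries (2.79 ± 0.86, edgeR, adjusted p = 0.248); DESeq2 gave 0.0329. Of the 8 genes, 4 had an unadjusted p under 0.05 in that comparison: Igf1, Ghr, Socs2 and Cish.

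From month 4 to month 12 Stat5a rose in control livers, from 15.9 ± 0.799 to 24.97 ± 7.63 CPM (0.65 ± 0.21, edgeR, adjusted p = 0.0265, n = 3 per group). That was 1 of 8 genes, beside 22.2% of all genes. The call rested on single libraries: without control month 12 replicate 2, at 33.7 CPM, the log2 difference was 0.34 (adjusted p = 0.277), and without control month 4 replicate 1, 2 or 3 the adjusted p was 0.0583, 0.0881 or 0.0950. Control month 12 replicate 2 also had the highest summed Kupffer cell markers of the control month 4 and month 12 libraries, 1023 CPM against 144 to 309 CPM in the other 5. Its summed neutrophil markers were 48.0 CPM against 1.41 to 7.95 CPM. It differed in the clock gene Dbp too, at 5.96 CPM against 66.5 and 70.4 CPM in the other month 12 controls. The part of these markers and of clock phase in the Stat5a change was not tested. Ghr in the same comparison had a log2 difference of -0.40 ± 0.16 (edgeR, adjusted p = 0.0780). In irradiated livers 0 of 8 passed from month 4 to month 12 with edgeR or DESeq2, beside 0.0864% of all genes. Igfals was the 1 with an unadjusted p under 0.05 there (-0.62 ± 0.26, adjusted p = 0.443). The Gm26917 share was 0.469 to 0.508% in control libraries of month 4 and 1.33 to 2.04% in those of month 12. In irradiated libraries it was 0.827 to 0.985% and 0.759 to 1.04%. Composition and time therefore cannot be told apart in the control livers.

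Months 1 and 12 differ in library composition as well as in time, and these cannot be told apart. In control livers Stat5a (0.64 ± 0.21, adjusted p = 0.0187) and Stat5b (0.55 ± 0.12, adjusted p = 0.00133) were higher at month 12 than at month 1 (edgeR), 2 of 8 beside 37.1% of all genes. Stat5a lost the call without control month 1 replicate 1 (0.0868) or 2 (0.0553) or control month 12 replicate 2 (0.169), and with upper quartile scaling the log2 differences fell to 0.32 and 0.25 and neither gene passed (adjusted p = 0.256 and 0.0748). In irradiated livers Igf1 rose from 406 ± 44.6 to 780 ± 81.3 CPM (0.94 ± 0.17, edgeR, adjusted p = 5.69e-05) and Ghr from 483 ± 137 to 858 ± 94.8 CPM (0.83 ± 0.17, adjusted p = 0.000161). Stat5a fell there from 25.1 ± 2.52 to 16.5 ± 3.57 CPM (-0.60 ± 0.21, adjusted p = 0.0194; 0.106 without irradiated month 12 replicate 1). These were 3 of 8 genes, beside 46.2% of all genes.

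Across livers, Cish and Bcl6 varied in opposite directions. Pearson's r between their log2 CPM was -0.78 over the 12 libraries of months 1 and 2 (Spearman's rho -0.87) and -0.56 over the 18 libraries of months 4, 9 and 12 (rho -0.60). Leaving out the 2 libraries farthest from the median of Cish gave -0.88 and -0.67, and around the group means r was -0.56 over all 30. The points share library depth, and 28 pairs of the 8 genes were computed, so these are descriptions. The 2 irradiated livers of month 4 with 15.8 and 14.8 CPM of Cish had 7.71 and 8.39 CPM of Bcl6, and the one with 1.30 CPM of Cish had 83.9 CPM of Bcl6. In the controls of month 4 the same order held, with 16.9 CPM of Cish beside 14.2 CPM of Bcl6, and 1.80 beside 80.5 CPM.

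Socs2 and Cish, which are induced by the same factor, ran together less closely, with r of 0.63 over months 1 and 2 (0.32 without 2 libraries) and 0.53 over months 4, 9 and 12 (0.46 without 2 libraries). Ghr and Igfals had r of 0.83 and 0.71 in the 2 sets, and Ghr and Igf1 0.84 and 0.40. Socs2 and Stat5a had r of -0.67 and -0.50, which became -0.47 and -0.12 without 2 libraries. The later set includes the month 9 values of Socs2 by which the genes were chosen; over the 12 libraries of months 4 and 12 alone, r was 0.33 with Cish and 0.00363 with Stat5a.

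**Figure D3:**
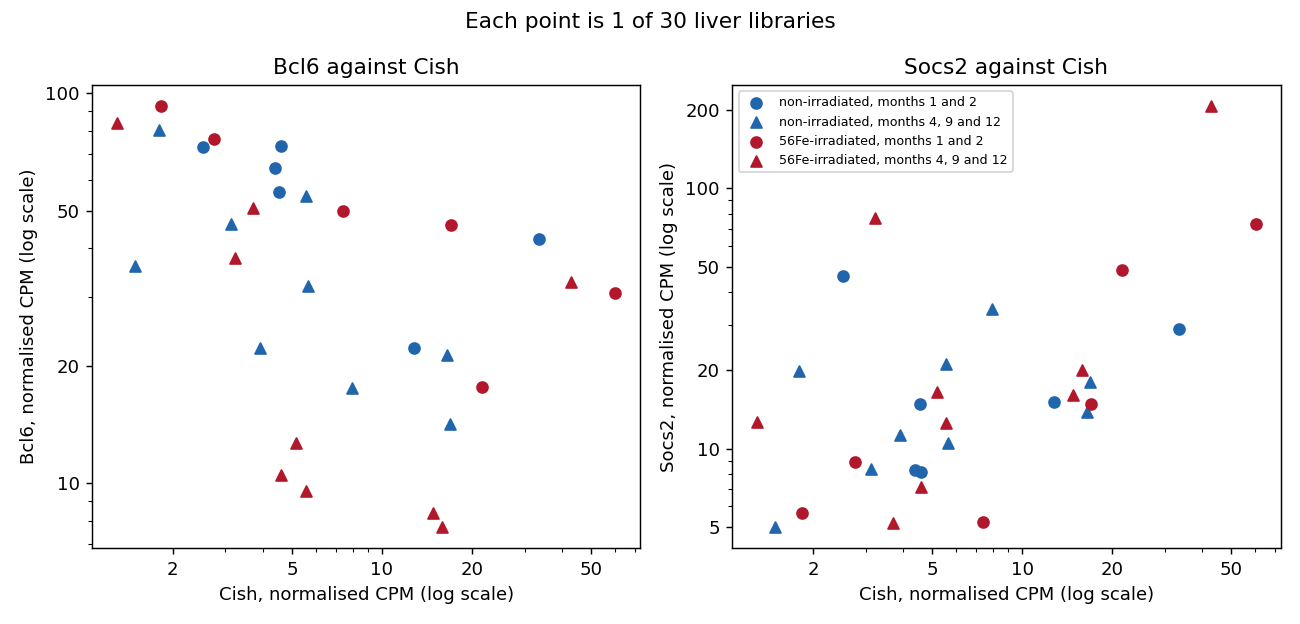
Bcl6 (left) and Socs2 (right) against Cish in normalised CPM, all axes on log scales; each point is 1 of 30 livers, circles months 1 and 2, triangles months 4, 9 and 12, blue non-irradiated and red 56Fe-irradiated. Livers with more Cish have less Bcl6 in both sets (r -0.78 and -0.56), and Socs2 runs with Cish more loosely (r 0.63 and 0.53).

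The promoters of Cish and Bcl6 are shown because these genes varied in opposite directions and both windows hold the core letters that STAT5 recognises, TTCNNNGAA, which read the same on both strands. Windows run from 250 bases before to 50 after a RefSeq start (GRCm38.p6), 5′ to 3′ on the strand of the gene, and capitals mark each match. The table held windows for 7 of the 8 genes, 13 windows in all; none was given for Socs2.
Cish chr9:107296409-107296708, plus strand: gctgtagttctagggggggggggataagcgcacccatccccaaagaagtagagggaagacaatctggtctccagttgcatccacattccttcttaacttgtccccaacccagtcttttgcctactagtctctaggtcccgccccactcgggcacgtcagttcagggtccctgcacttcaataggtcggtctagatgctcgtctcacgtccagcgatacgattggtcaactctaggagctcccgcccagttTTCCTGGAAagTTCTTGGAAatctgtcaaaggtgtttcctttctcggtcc
Bcl6 chr16:23981234-23981533, minus strand: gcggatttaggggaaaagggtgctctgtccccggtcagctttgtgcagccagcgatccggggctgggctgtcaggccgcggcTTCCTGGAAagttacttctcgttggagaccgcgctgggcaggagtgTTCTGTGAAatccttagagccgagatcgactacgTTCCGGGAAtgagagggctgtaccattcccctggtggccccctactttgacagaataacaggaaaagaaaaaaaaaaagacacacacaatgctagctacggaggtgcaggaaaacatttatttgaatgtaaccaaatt
The Cish window holds 2 matches, beginning 0 and 11 bases after the start. The Bcl6 window, 1 of those annotated for that gene, holds 3 matches, beginning 168, 122 and 88 bases before the start; another Bcl6 window holds 1. Of 32851 RefSeq promoter windows of this length, 8.30% held the letters at least once and 0.457% at least 2 times. Igfals had windows with a match at 236 and at 58 bases before the start. No match was found in the windows of Ghr, Stat5a, Stat5b and Igf1. A match is a run of letters and says nothing about binding.

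The genes whose levels ran most like Socs2 were Gtpbp4, a ribosome biogenesis GTPase (r 0.87 over months 1 and 2 and 0.82 over months 4, 9 and 12), Ern1, the IRE1 sensor of endoplasmic reticulum stress (0.82 and 0.85), Zfp568 (0.79 and 0.88), Serpina4-ps1 (0.84 and 0.83) and Wdr37 (0.86 and 0.79). They led 12383 named genes with a mean of at least 1 CPM, ranked by the mean of the 2 correlations. The ranking uses the month 9 values of Socs2 by which the genes were chosen, and the later correlations of these 5 genes were lower without month 9. Over the 12 libraries of months 4 and 12 alone, r was 0.30 for Gtpbp4, 0.28 for Ern1, 0.44 for Zfp568, 0.62 for Serpina4-ps1 and -0.11 for Wdr37. Without the 2 libraries farthest from the median of Socs2 in months 1 and 2, r was 0.56 to 0.77 for these 5 genes. Cish stood at rank 255 in that order, and Stat5a at rank 12341.

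Counts of other growth hormone and IGF signalling genes stand beside 4.6%, 4.37%, 3.6% and 0% of all genes called at months 1, 2, 4 and 12. Of 13 receptor-proximal genes, among them the kinase gene Jak2, the prolactin receptor gene Prlr and the inhibitor genes Socs1 and Socs3, 0 passed at months 1, 4 and 12 (edgeR; 1, 1 and 5 had an unadjusted p under 0.05). At month 2 Ptpn11, the phosphatase SHP2, fell from 85.9 ± 2.35 to 58.8 ± 1.73 CPM (log2 difference -0.55 ± 0.14, edgeR, adjusted p = 0.0258). Of 15 genes for IGF binding proteins, receptors and proteases, 0 passed at months 1, 4 and 12 (3, 0 and 3 at an unadjusted p under 0.05) and 1 at month 2, Igfbp4, which fell from 879 ± 38.9 to 625 ± 12.7 CPM (-0.49 ± 0.14, edgeR, adjusted p = 0.0464). Leaving out 1 library ended the call for 5 of 6 libraries for Ptpn11 (adjusted p up to 0.130) and for all 6 for Igfbp4 (0.0959 to 0.198). The list medians at month 2 were -0.24 and -0.43, beside -0.02 over all genes.

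Among 8 liver transcription factors linked to the hormone response, the glucocorticoid receptor gene Nr3c1, whose product cooperates with STAT5, fell at month 1 from 125 ± 25.5 to 90.9 ± 8.24 CPM (-0.46 ± 0.13, edgeR, adjusted p = 0.0406). Its call was lost without any of 5 of the 6 libraries (adjusted p 0.0964 to 0.368), and with upper quartile scaling (0.0806). At months 2, 4 and 12, 0 of these factors passed (edgeR; 6, 1 and 1 of 8 at an unadjusted p under 0.05).

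Liver genes with a known sex bias were counted as a readout downstream of STAT5b, from 20 male-biased and 20 female-biased genes; 4 of the latter did not pass the low-count filter, which left 16. From month 4 to month 12 in control livers 10 of the 20 male-biased genes fell and 0 rose, and 7 of the 16 female-biased genes rose and 0 fell (edgeR). Of all genes, 9.5% fell and 12.6% rose in that comparison. The Gm26917 share rose between these control groups as well, so composition and time cannot be told apart there. The list medians were -1.40 and 1.64 on the log2 scale, beside 0.08 over all genes. Many of these genes belong to families of near-identical copies (Mup, Cyp2a, Cyp2b, Cyp2d, Cyp4a), so reads may be split or dropped among copies.

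Mup3, a major urinary protein, stood at 11075, 9866 and 13612 CPM in control livers at month 4 and at 3075, 3706 and 4794 CPM at month 12. The groups were far apart, and Mup3 fell by 1.58 on the log2 scale (SE 0.23, edgeR, adjusted p = 4.64e-05). Cyp2d9, a male-biased steroid hydroxylase, fell from 1243, 1244 and 1513 CPM to 596, 481 and 543 CPM (-1.30 ± 0.22, edgeR, adjusted p = 0.000212). Nudt7 (-1.46 ± 0.26, adjusted p = 0.000388) and Ugt2b1 (-1.30 ± 0.30, adjusted p = 0.00351) fell as well, and these 4 calls held without any 1 of the 6 libraries.

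On the female-biased side, Cyp17a1, a steroid-synthesising enzyme, rose from 4.36, 7.52 and 12.7 CPM to 28.4, 20.5 and 34.5 CPM in control livers (1.77 ± 0.50, edgeR, adjusted p = 0.0147). Tox rose from 4.28, 3.63 and 3.60 CPM to 14.1, 6.16 and 12.2 CPM (1.50 ± 0.36, edgeR, adjusted p = 0.00469). Cyp2a4 went from 0.306, 0.806 and 0.429 CPM to 10.1, 2.10 and 15.8 CPM (4.13 ± 1.14, adjusted p = 0.0132). Cyp2b13 was called too (4.74 ± 1.29, adjusted p = 0.0124), but control month 12 replicate 2 held 1 count, against 147 and 130 counts in the others. The same liver was the lowest of the 3 for Cyp17a1, Tox and Cyp2a4, and it is the one with 1023 CPM of Kupffer markers, whose part was not tested. Without it 10 male-biased and 9 female-biased genes were called. The male-biased count was 5 without control month 4 replicate 3 or control month 12 replicate 1. The female-biased count was 2 without control month 4 replicate 1, 3 without control month 4 replicate 3 and 4 without control month 12 replicate 3. Of the 4 female-biased genes named, Cyp17a1 lost its call without control month 4 replicate 1 (0.0755) or 2 (0.0604) or control month 12 replicate 3 (0.0661). Cyp2a4 lost it without control month 4 replicate 1 (0.0534) or 3 (0.0564) or control month 12 replicate 3 (0.0592), and Cyp2b13 without control month 4 replicate 3 (0.0582).

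In irradiated livers the list medians from month 4 to month 12 were -0.95 for the male-biased and 1.69 for the female-biased genes, beside 0.02 over all genes. The fitted values of all 20 male-biased genes were negative there, and those of 14 of the 16 female-biased genes positive, with values smaller than their SE included. Cyp2d9 alone was called (-1.17 ± 0.22, edgeR, adjusted p = 0.0400), beside 0.0864% of all genes. It lost the call without any of 5 of the 6 libraries (0.0911 to 0.236). At an unadjusted p under 0.05 there were 9 male-biased and 10 female-biased genes, beside 1892 of the 19685 genes tested. The difference between the arms was tested as the effect at month 12 minus that at month 4. In that test 1 of the 36 genes passed, beside 5.37% of all genes. That gene was Mup3 (1.06 ± 0.31, edgeR, adjusted p = 0.0439), which in irradiated livers went from 7873, 7989 and 8047 CPM to 6813, 4968 and 4865 CPM. The Mup3 call was lost for 9 of the 12 libraries left out in turn (adjusted p up to 0.174).

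**Figure D4:**
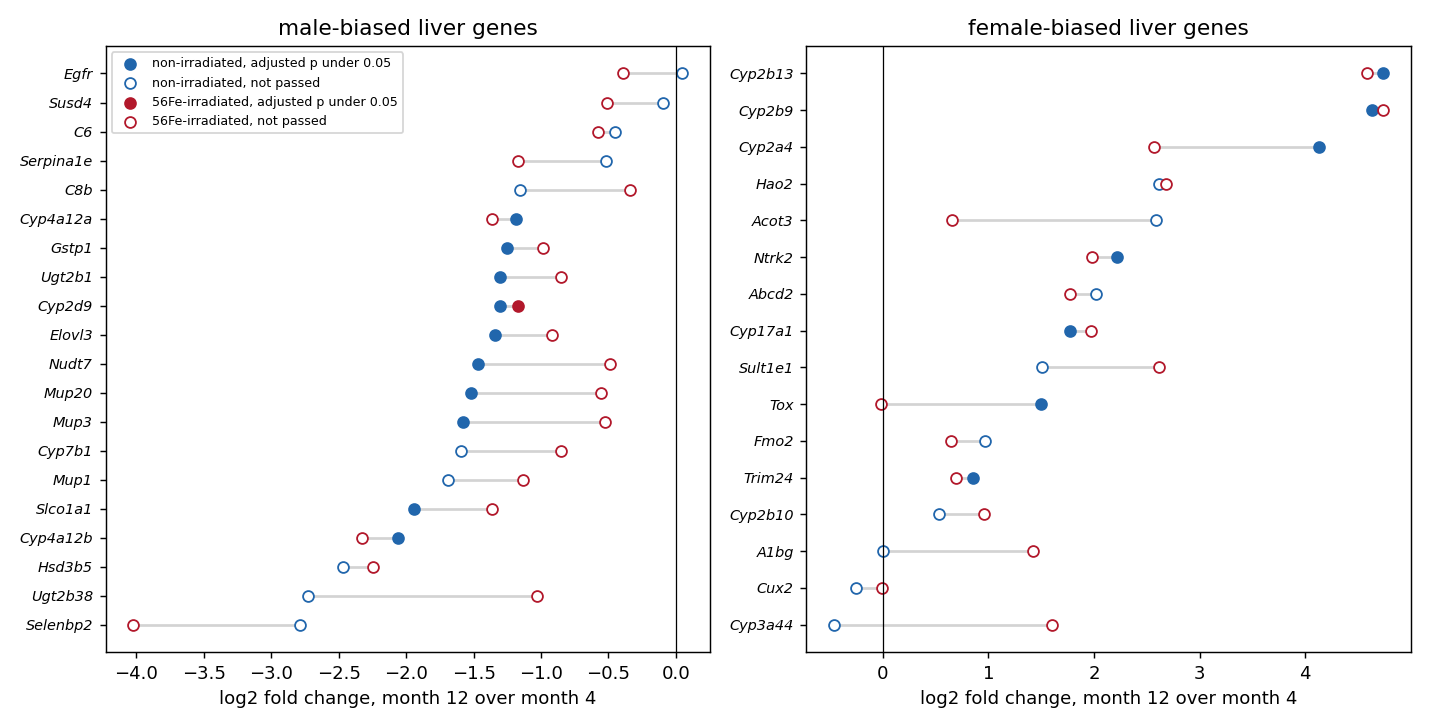
Log2 fold change of month 12 over month 4 for 20 male-biased and 16 female-biased liver genes; blue circles are control livers, red circles irradiated livers, and filled circles passed adjusted p under 0.05. In control livers 10 male-biased genes fell and 7 female-biased genes rose, and in irradiated livers Cyp2d9 alone passed. Of all genes, 22.2% passed in control and 0.0864% in irradiated livers.

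In the irradiation tests, 1 of 20 male-biased and 1 of 16 female-biased genes passed at month 1, where 4.6% of all genes did. The fatty acid elongase gene Elovl3 is male-biased and under clock control. At month 1 it stood at 49.7 ± 16.01 CPM in control and 415 ± 240 CPM in irradiated livers (3.06 ± 0.48, edgeR, adjusted p = 0.000613). Its call held without any 1 of 6 libraries. Elovl3 was also higher in control livers at month 2, at 547, 201 and 313 CPM, than in those at month 1 (edgeR, adjusted p = 0.00103). Tox fell at month 1 from 10.4 ± 1.14 to 3.73 ± 0.136 CPM (-1.47 ± 0.37, edgeR, adjusted p = 0.0208), a call lost without any of 5 of the 6 libraries (0.0632 to 0.113). At months 2, 4 and 12, 0 of 20 male-biased and 0 of 16 female-biased genes passed (edgeR; 0, 2 and 1 male-biased and 0, 0 and 3 female-biased genes at an unadjusted p under 0.05), where 4.37%, 3.6% and 0% of all genes did. In the mean effect over these months and month 1, where 6.94% of all genes passed, Elovl3 (0.93 ± 0.22, edgeR, adjusted p = 0.0162) and the female-biased A1bg (1.28 ± 0.36, 0.0322) were higher. The female-biased Fmo2 was lower (-0.72 ± 0.19, adjusted p = 0.0238). Leaving out 1 of 24 libraries ended the call for 0 of them in Elovl3, 3 in Fmo2 (adjusted p up to 0.0596) and 10 in A1bg (up to 0.0674).

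At month 9, given as a description with no test, the median log2 difference of irradiated over control livers was 0.004 over all genes. It was 0.70 over the 20 male-biased genes, 17 of them positive, and -0.76 over the 16 female-biased genes, 13 of them negative. These signs were counted whatever the SE.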

How the data were processed

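The authors deposited raw read counts per Ensembl gene for 30 liver libraries, made per the labels with Ribo-Zero and TruSeq kits, STAR 2.5.3a, its GeneCounts mode, GRCm38 and Gencode M14. The strand column is not given in the sources used here. Depth was taken as the library total, 7995248 to 20215995 counts, which is below the number of reads in the series text. Gencode M21 (GRCm38) supplied symbols for 51633 of 51826 identifiers and all gene coordinates.

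The count test was the robust quasi-likelihood test of edgeR 4.0.16 under R 4.3.3, over all 30 libraries with a coefficient for each group. Libraries were scaled by TMM, after filterByExpr had removed genes with few counts (minimum 10 per library, 15 in total). Adjusted p-values are Benjamini-Hochberg values over 19685 genes, with calls under 0.05. The 13 tested comparisons gave 104 tests on the 8 genes. CPM are TMM-scaled, and RPKM use the exon length of Gencode M21. The labels call the libraries biological replicates, and p-values measure the spread between them. Values of the 8 genes smaller than their SE were given no direction. Sign counts over the sex-biased lists used every fitted value. Scripts were checked on simulated data, and no pair of replicates looked like the same library (chi-square per gene at least 8.60).

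The 8 genes, the lists and the tests were chosen with earlier results of these data known. Named list genes were up to 4 called per list and comparison with the smallest adjusted p; genes overlapping a member, clock and composition genes and those most like Socs2 were named too. Month 9 values are TMM-scaled CPM and fitted differences. Alternatives were RLE and upper quartile factors, other filters, DESeq2 1.42.0, a replicate block, fits on the compared groups only and leaving out each library. Same-numbered libraries of the arms had deviations correlated at -0.384 to 0.346, above 0.1 for every pair only at month 12, so the numbers were not taken to pair animals. Results for some list genes are not reported here.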

Additional observations from a re-analysis of the deposited data

Results flagged for a closer look

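The irradiation effect differed between months 1, 2, 4 and 12 for 1 of the 8 axis genes (edgeR F-test on 3 degrees of freedom, n = 3 in each of 8 groups). Of all genes, 7.27% passed this test. It was passed too by 5 of the genes named beside the 8. Named list genes were chosen among those called, so that count is not a result about the lists. For Stat5a the adjusted p was 0.0391: the 3 irradiated libraries lay above the controls at months 1 and 4 and below them at month 12. The Gm26917 share had the same order at these months, and its part was not tested. For Elovl3 the adjusted p was 0.0138, with log2 differences of 3.06 at month 1, where all 3 irradiated libraries were higher, and 0.51 at month 12. For Igfbp7, which encodes an IGF binding protein family member, it was 0.0295, with 0.41 at month 1 and -0.45 at month 12. For Tox it was 0.0349, with -1.47 at month 1, 0.70 at month 4 and -0.81 at month 12. For Nr3c1 it was 0.0415, with -0.46 at month 1 and 0.31 at month 12. For Igf1os it was 0.0472, with 3.19 at month 2. Leaving out 1 of 24 libraries ended the call for 8 of them in Stat5a (adjusted p up to 0.109), 0 in Elovl3 and 2 in Igfbp7 (up to 0.0771). The call ended for 17 of them in Tox (up to 0.0872), 18 in Igf1os (up to 0.133) and 22 in Nr3c1 (up to 0.140).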

How the results depend on the processing

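The counts of the 8 genes called were recomputed under each alternative, and no value with a direction reversed. The share of all genes called under each alternative is not given beside them, so they are not read as results about the 8 genes. With upper quartile factors the count was 1 for the mean effect, 2 for the difference between months, 0 for month 1 to 2 in controls and 1 for month 1 to 12 in controls. That last call was neither Stat5a nor Stat5b. That scaling moved the median log2 change of all genes from month 1 to 12 to -0.29 in controls and -0.44 in irradiated livers, against 0.01 and -0.08 with TMM. Without the low-count filter Stat5b did not pass at month 1, as given above. The count was then 0 for month 1 to 2 in controls and 1 for month 12 minus month 4. Male-biased genes called from month 4 to 12 in controls were 5 rather than 10. With at least 1 CPM in 3 libraries it was 1 for the mean effect, 2 for the difference between months and 2 for month 4 to 12 in controls. With DESeq2 it was 3 at month 1 (Ghr 0.0403, Stat5a 0.0440 and Stat5b), 1 at month 2, 1 for the mean effect, 3 for the difference between months, 1 for month 1 to 2 in irradiated livers and 2 for month 4 to 12 in controls; male-biased genes called there were 16. With the replicate block it was 4 at month 1 (Ghr 0.0331, Stat5a 0.0201, Igf1 0.0374 and Stat5b) and 1 for month 12 minus month 4. At month 12, the only month where every same-numbered pair was correlated above 0.1, the block changed no call of the 8 genes. Fits on the compared groups alone gave 3 at month 1, 0 for month 1 to 2, month 4 to 12 and month 1 to 12 in controls, and 4 female-biased genes from month 4 to 12.

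Leaving out each library in turn gave 0 to 1 of the 8 genes at month 1, 0 to 2 for the difference between months, 0 to 1 for month 1 to 2 and for month 4 to 12 in controls, 1 to 2 for month 1 to 12 in controls, 2 to 4 for month 1 to 12 in irradiated livers, 0 to 1 for month 12 minus month 4 and 0 in the others. The number of all genes called moved as well when a library was left out. It was 249 to 1874 at month 1, 614 to 2262 for the difference between months and 344 to 1458 for month 12 minus month 4. In controls it was 604 to 1901 for month 1 to 2, 2794 to 4435 for month 4 to 12 and 4174 to 7323 for month 1 to 12. For month 1 to 12 in irradiated livers it was 7267 to 8606. The 95% intervals of the irradiation effects on Socs2, Cish and Bcl6 were more than 3 wide on the log2 scale. A p above the threshold there therefore does not show that the arms were alike.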
